A study of Gallus gallus with 32 samples.

Results

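Chemokines are small secreted proteins that guide leukocytes along gradients, and interleukins are secreted signals that leukocytes and tissue cells exchange through paired receptor chains. In the chicken, as in mammals, the liver takes part in both: hepatocytes carry the interleukin-6 and interleukin-1 receptors that drive the acute phase response, Kupffer cells are its resident macrophages, and stromal and endothelial cells hold leukocytes through chemokines such as CXCL12. Atypical chemokine receptors bind chemokines without the usual G protein signal, and several of them take chemokines up for degradation. In this way they shape the gradients that typical receptors read.

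The genes described are the chemokine ligands, chemokine receptors, interleukins and interleukin receptors of the deposited table. They were chosen by name: every gene symbol that begins with IL and a number, with CCL or CXCL, with CCR, CXCR or ACKR and a number, or that is XCL1 or XCR1, apart from IL7R. The rule took 99 of the 25619 genes. It also took IL4I1, which is an amino acid oxidase and no interleukin, and IL17D, which the RefSeq table of the chicken (GRCg7b) lists as a transcribed pseudogene.

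Livers came from Arbor Acres broilers, which are meat-type birds of a commercial chicken line, and their messenger RNA was sequenced after feeding diets that differed in added arginine. The 4 groups were a control diet with 0 g/kg, Arg with 1.8 g/kg, 5X Arg with 9 g/kg and 10X Arg with 18 g/kg, each with 8 libraries. The labels give neither the age nor the sex of the birds, and they do not say that the 8 libraries of a diet are separate birds, so the p-values below measure the spread between these libraries. Values are TPM, which give each transcript's share of the library's RNA corrected for its length, and the sequencing depth behind them is unknown.

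The tissue label was checked against marker genes. The 8 hepatocyte markers, ALB among them, summed to between 88999.7 and 183611 TPM in the 32 libraries, and none of them was at 0 in any library. Markers of other cells were present in every library at far lower sums, from 47.7 to 197 TPM for 9 T and NK cell genes and from 54.3 to 1822 TPM for 7 macrophage genes. Libraries shared no identical columns, and their median correlation with the other libraries on log2(TPM + 1) ran from 0.916 to 0.953, lowest in control replicate 7. Control replicate 7, 1.8 g/kg replicate 4 and 18 g/kg replicate 2 are called here the libraries that stand apart. They held the highest value of 4, 13 and 3 of the 43 tested genes. That count alone does not single them out, since control replicates 6 and 4 held the highest value of 4 and 3. The gap check given below flagged them 4, 5 and 2 times, and no other library more than 1 time. Values without the 3 libraries that stand apart, an alternative chosen after seeing the data, are given beside several results.

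Expression of the family in liver was uneven. An average of 1 TPM or more across all libraries, the level required for a test, was reached by 43 of the 99 genes, and 14 of these had a mean of 10 TPM or more. The other 56 were below it, 26 of them under 0.1 TPM, and IL4, IL17C and IL20RB were listed at 0 in all libraries. Just inside the limit lay IL16 (1.12 TPM) and IL1B (1.29 TPM), and just outside it lay CCLI7 (0.973 TPM), CCL17 (0.918 TPM) and CCL20 (0.851 TPM). Receptors and binding proteins of interleukins made up most of the signal. Of 38 such genes 21 were tested, against 6 of 25 interleukins, 8 of 18 chemokine ligands, 4 of 13 chemokine receptors and 3 of 4 atypical chemokine receptors.

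**Figure D1:**
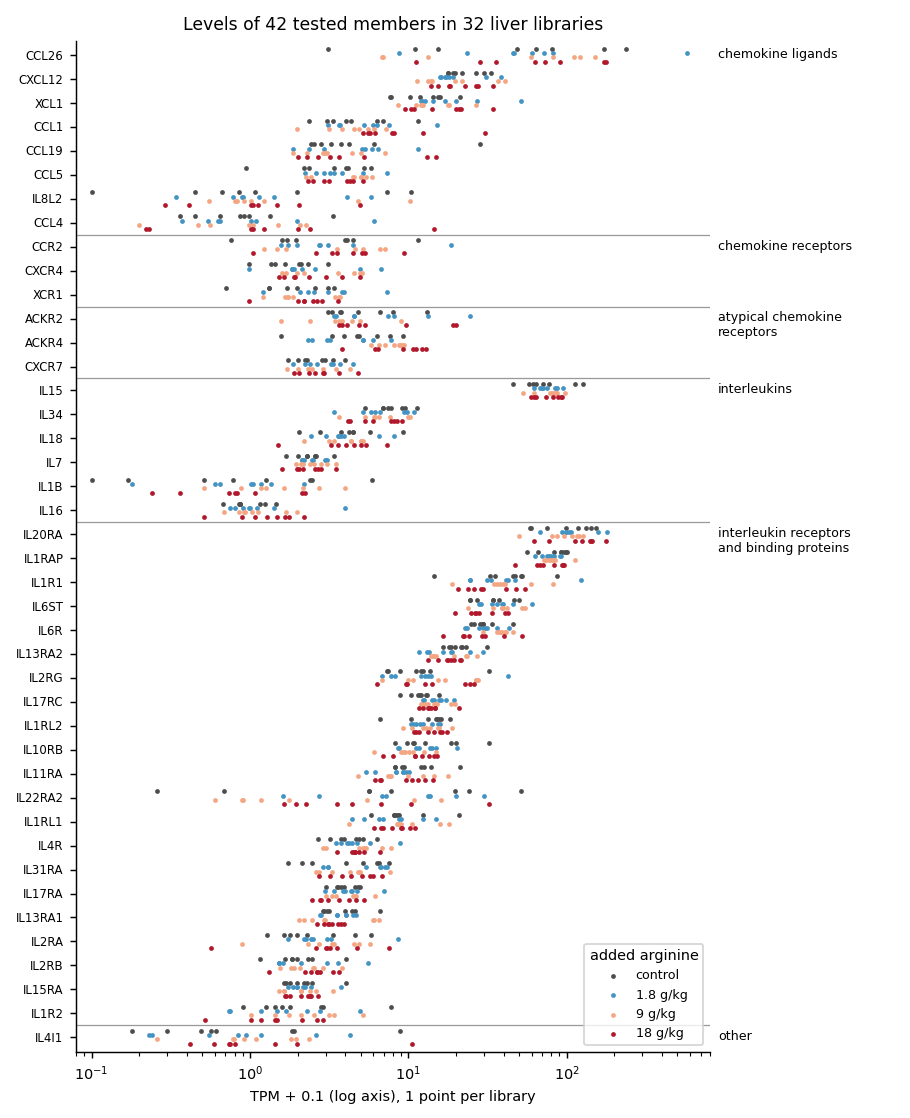
Levels of 42 tested genes, grouped by role, with 1 point per library and colour for the diet; the horizontal axis is TPM + 0.1 on a log axis. The 4 colours overlap in every row, while CCL26 spreads from 2.99 to 577 TPM and IL22RA2 from 0.16 to 51.7 TPM across libraries.

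The interleukin receptor chains led the family. IL20RA, a receptor chain for interleukins 19, 20 and 24 in mammals, had the highest mean of all, 109 TPM, and ran from 50.1 to 181 TPM. Its usual partner chain IL20RB was at 0 throughout, while IL10RB, a chain that the receptors for interleukins 10, 22 and 26 share in mammals, had a mean of 12.4 TPM. IL1RAP, the accessory chain of the interleukin-1 receptor family, had a mean of 80.8 TPM and ran only from 47.2 to 112 TPM. IL1R1, the signalling receptor for interleukin-1, averaged 42.3 TPM and ran from 14.4 to 124 TPM. The decoy receptor IL1R2, which binds interleukin-1 without a signal, averaged 2.09 TPM. The interleukin-6 receptor pair was also well expressed, with a mean of 36.0 TPM for IL6ST, the shared signal chain gp130, and 32.3 TPM for IL6R.

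Among the interleukins themselves, IL15 stood far above the rest. This cytokine maintains NK cells and memory T cells in mammals, and it averaged 77.1 TPM, with control libraries from 45.9 to 127 TPM (median 67.1) and 18 g/kg libraries from 59.0 to 93.1 TPM (median 78.1). IL34, a second ligand of the macrophage growth factor receptor CSF1R, averaged 7.09 TPM, and IL18, a cytokine released after inflammasome activation, averaged 4.25 TPM. Most T helper cytokines were at or near 0. IL2, IL4, IL5, IL9, IL10, IL13, IL17A, IL21 and IL22 each averaged under 0.1 TPM, and none of them reached 1 TPM in any library. IL6 averaged 0.0484 TPM with a highest value of 0.93 TPM in 9 g/kg replicate 4.

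CCL26, whose human namesake attracts eosinophils, was the most abundant chemokine ligand with a mean of 85.7 TPM. CXCL12, the ligand of CXCR4 that stromal cells make, averaged 22.035 TPM, and XCL1, the ligand of XCR1 that T and NK cells release, averaged 16.5 TPM. Typical chemokine receptors were low: CCR2, the monocyte receptor, averaged 4.06 TPM, CXCR4 2.55 TPM and XCR1, a receptor of cross-presenting dendritic cells, 2.42 TPM. The atypical receptors were ACKR2, a scavenger of inflammatory CC chemokines (6.76 TPM), ACKR4, a scavenger of CCL19, CCL21 and CCL25 in mammals (6.57 TPM), CXCR7, the scavenger of CXCL12 also named ACKR3 (2.71 TPM), and ACKR1 (0.444 TPM, not tested).

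Of the 56 genes under the limit, 38 never reached 1 TPM and 18 did so in at least 1 library. The highest single values came from few libraries. CCLI7 reached 7.95 TPM in 9 g/kg replicate 1, CXCL13L2 4.84 TPM and IL21R 4.58 TPM in 1.8 g/kg replicate 4, and IL8L1, a chicken counterpart of interleukin-8, 3.65 TPM in control replicate 7. CCL20 reached 3.13 TPM in 18 g/kg replicate 4 and IL18R1 3.01 TPM in 18 g/kg replicate 2. These 6 genes had medians of at most 1.005 TPM in every diet, and the groups overlapped for each of them.

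The study's question was how added arginine changes liver expression. No gene of the family passed the test in any comparison. In limma on log2(TPM + 1) with Benjamini-Hochberg adjustment over the 11339 tested genes, 0 of 43 had an adjusted p below 0.05 at 1.8, 9 or 18 g/kg against control, in the 3 comparisons between doses, in the test of any difference among the 4 groups or in the linear trend on dose. The same was true of the whole table, where the percent called was 0 in all 8 tests. The lowest adjusted p of a family gene against control was 1 at 1.8 g/kg, 0.906 at 9 g/kg and 1 at 18 g/kg.

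At an unadjusted p below 0.05, 3 of 43 genes were counted at 1.8 g/kg against 2.34% of all genes, 4 at 9 g/kg against 4.87%, and 2 at 18 g/kg against 2.44%. Between doses the counts were 3 for 9 against 1.8 g/kg (2.83% of all genes), 1 for 18 against 1.8 g/kg (2.04%) and 4 for 18 against 9 g/kg (5.69%). The test of any difference counted 2 (3.18%) and the linear trend 2 (2.03%). Each share of the family rests on at most 4 genes, and no test of the difference from the background was made. Without the 3 libraries that stand apart, the counts against control were 2, 5 and 3, beside 3.66%, 8.32% and 2.51% of all genes. In that fit 0 family genes passed the adjusted threshold.

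Across the family the differences from control were centred near those of all genes. Of 43 genes, 25 were higher than control at 1.8 g/kg, 28 at 9 g/kg and 23 at 18 g/kg, where 59.0%, 50.6% and 55.6% of all tested genes were higher. The median log2 difference of the family was 0.06, 0.03 and 0.05 at the 3 doses, beside 0.03, 0.00 and 0.02 over all genes. All 3 comparisons share the control libraries. Differences between the diet means held a median of 5.58% of the variance of a family gene on the log2 scale and 6.22% of that of any tested gene. These are raw shares, which lie above 0 even where diet has no effect. The median 95% interval of a family gene reached 0.47 to each side of its log2 difference.

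**Figure D2:**
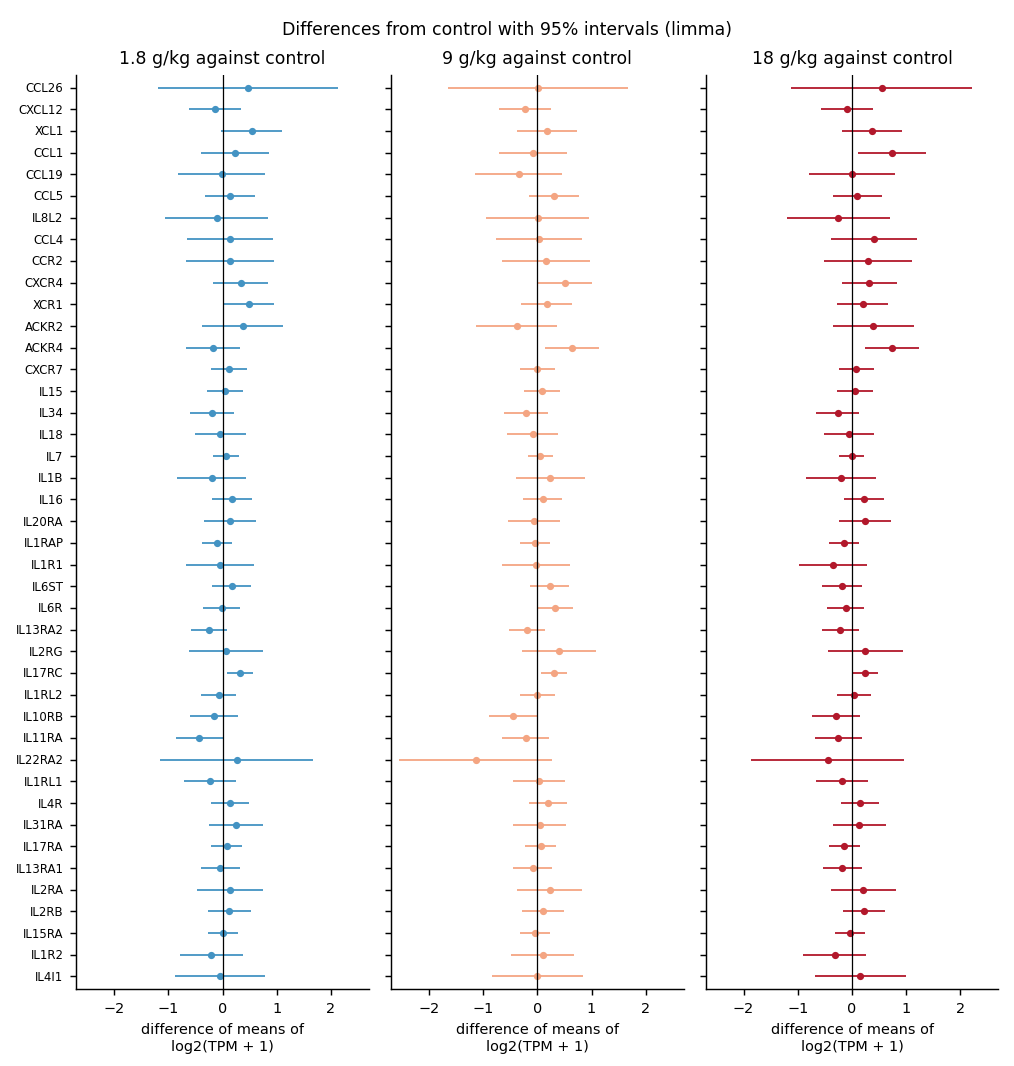
Log2 differences from control (difference of the means of log2(TPM + 1)) with 95% intervals from limma for 42 tested genes at each dose, in the same order by role. Most intervals cross 0; those of CCL26 and IL22RA2 are the widest, and ACKR4 at 9 and 18 g/kg lies at 0.63 and 0.74.

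ACKR4 was the gene of the family that differed most between diets in the unadjusted tests. The control libraries ran from 1.48 to 9.17 TPM (median 4.72) and averaged 5.12 ± 2.47 TPM (SD, n = 8), and those at 1.8 g/kg ran from 2.24 to 7.72 TPM (median 4.075) and averaged 4.30 ± 1.95 TPM. The 9 g/kg libraries ran from 5.72 to 9.30 TPM (median 8.335) and averaged 7.87 ± 1.31 TPM, and the 18 g/kg libraries ran from 3.73 to 12.92 TPM (median 9.895) and averaged 9.00 ± 3.28 TPM. Libraries at 9 g/kg were above the control mean in 8 of 8 cases and those at 18 g/kg in 7 of 8, but the ranges of all 4 diets overlapped.

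The log2 difference of ACKR4 from control was -0.18 ± 0.24 (SE) at 1.8 g/kg, with a 95% interval from -0.67 to 0.32. It was 0.63 ± 0.24 at 9 g/kg (interval 0.14 to 1.13, limma adjusted p = 0.906) and 0.74 ± 0.24 at 18 g/kg (interval 0.24 to 1.24, limma adjusted p = 1). An exact permutation test of 8 against 8 libraries on this gene alone, 2-sided, gave p = 0.546, 0.0135 and 0.0266 at the 3 doses. Neither of the latter values accounts for the 43 genes looked at, and the adjusted values above do not pass the threshold.

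In the order of levels, 1.8 g/kg and control were neighbours that did not differ beyond their spread, and so were 9 and 18 g/kg, with a log2 difference of 0.11 ± 0.24 between them. Across that gap, 9 against 1.8 g/kg differed by 0.81 ± 0.24 and 18 against 1.8 g/kg by 0.92 ± 0.24 (limma adjusted p = 1 for both). The slope was 0.0502 ± 0.0125 log2 units per g/kg (limma adjusted p = 1). By unadjusted p it ranked 2 of the 11339 genes in the slope and 4 of 11339 in the test of any difference. Differences between the diet means held 40.9% of its variance, the highest raw share in the family. Without the 3 libraries that stand apart, the log2 differences were -0.39, 0.46 and 0.53 at the 3 doses, with no adjusted p below the threshold. Control replicate 7 held the lowest ACKR4 value, and without that library alone the differences were 0.46 and 0.57.

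Endothelial marker values are given beside ACKR4, and their order over the doses was another. Of 6 endothelial genes, all detected, 6 were higher than control at every dose, with a median log2 difference of 0.44, 0.58 and 0.38, and 0 of them passed the test. The medians were 0.17, 0.32 and 0.17 without the 3 libraries that stand apart, and without control replicate 7 alone they were 0.22, 0.32 and 0.19. Their summed level ran from 24.9 to 116 TPM in control, from 70.0 to 135 at 1.8 g/kg, from 74.7 to 133 at 9 g/kg and from 73.0 to 108 at 18 g/kg, with the lowest sum in control replicate 7. LYVE1, a receptor of sinusoidal and lymphatic endothelium, had log2 differences of 0.72, 0.61 and 0.72 at the 3 doses (limma adjusted p = 1, 0.906 and 1). Over the 32 libraries ACKR4 and the endothelial mean had a Pearson r of 0.567 (permutation p = 0.00053) and a Spearman rho of 0.386 (permutation p = 0.0298). The rho did not pass adjustment over the 301 relations tested (adjusted p = 0.107), and r was 0.396 without the 2 farthest libraries. The r was 0.457 without the 3 libraries that stand apart, with an adjusted permutation p of 0.0861. The endothelial relation was not particular to ACKR4. Over the 32 libraries 5 relations with this list passed both tests, and that of ACKR4 was not among them. Without the 3 libraries, r with the endothelial mean was 0.701 for IL2RA, 0.701 for CXCR7 and 0.623 for CCL26, while many other genes had a lower r than ACKR4. The part of endothelium in the ACKR4 values was not tested. In bulk tissue, fewer cells of a type and less RNA per cell cannot be told apart.

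CCL19, the ligand that ACKR4 scavenges in mammals, was ordered differently. Its log2 differences were -0.01, -0.34 and -0.00 at the 3 doses, and its highest value, 28.4 TPM, came from control replicate 7. CCR7, the signalling receptor for CCL19, averaged 0.723 TPM and was not tested. No gene of the deposited table bears the symbol CCL21 or CCL25, since the rule took every symbol that begins with CCL and found neither.

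**Figure D3:**
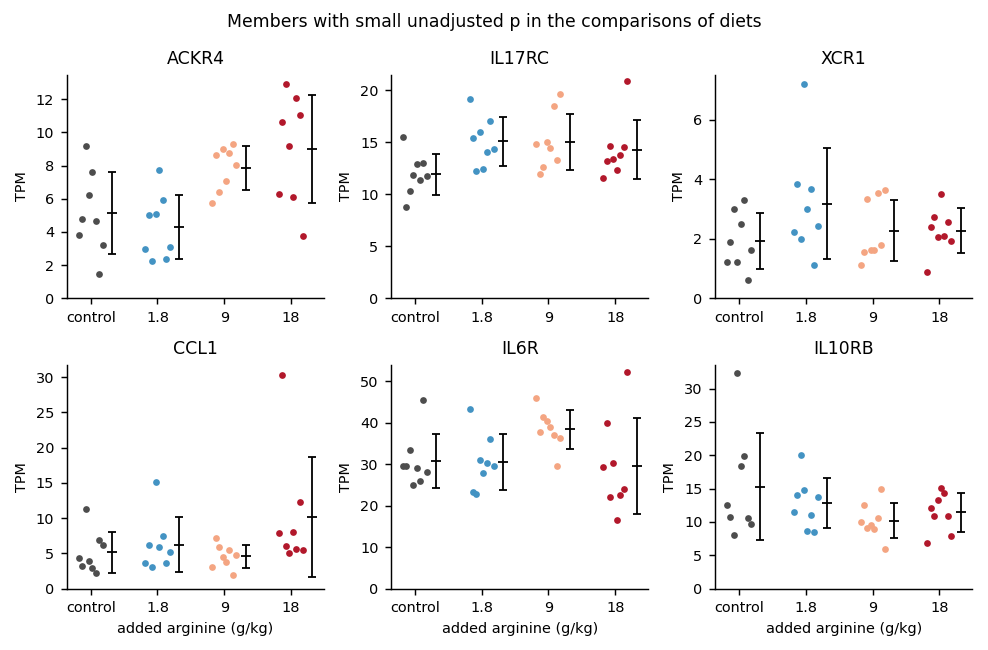
TPM of 6 genes by added arginine, 1 point per library, with the mean and SD of the 8 libraries beside the points. ACKR4 averages 7.87 and 9.00 TPM at 9 and 18 g/kg against 5.12 in control, the highest CCL1 point is 18 g/kg replicate 2 at 30.3 TPM, and the groups overlap in every panel.

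The other atypical receptors had other orders of levels. ACKR2 ran from 3.03 to 13.0 TPM in control (median 4.17), from 3.29 to 24.4 at 1.8 g/kg (median 5.91), from 1.48 to 8.88 at 9 g/kg (median 3.62) and from 3.57 to 19.9 at 18 g/kg (median 4.98). Its log2 difference was -0.75 between 9 and 1.8 g/kg and 0.77 between 18 and 9 g/kg, with adjusted limma p of 1 and 0.855. CXCR7 stayed between 1.62 and 4.69 TPM in all libraries, with log2 differences of 0.12, 0.00 and 0.08.

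IL17RC came next by unadjusted p. It pairs with IL17RA to form the receptor for interleukins 17A and 17F. Control libraries ran from 8.77 to 15.5 TPM (median 11.8) and those at 1.8, 9 and 18 g/kg from 12.3 to 19.2 (median 14.9), from 11.9 to 19.6 (median 14.7) and from 11.6 to 20.9 (median 13.6). The log2 differences were 0.32 ± 0.12, 0.31 ± 0.12 and 0.24 ± 0.12 (limma adjusted p = 1, 0.906 and 1), with 8, 8 and 7 of 8 libraries above the control mean. The ranges of all diets overlapped. Without 18 g/kg replicate 8, the library with the highest IL17RC value, the difference at 18 g/kg was 0.16. IL17RA had differences of 0.07, 0.07 and -0.14, and the ligands IL17A and IL17F averaged 0.0297 and 0.0647 TPM.

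CXCR4, XCR1 and CCR2 were higher than control at each dose without passing the test. XCR1 ran from 0.61 to 3.30 TPM in control (median 1.75), from 1.11 to 7.20 at 1.8 g/kg (median 2.73), from 1.11 to 3.63 at 9 g/kg (median 1.71) and from 0.88 to 3.51 at 18 g/kg (median 2.25). It differed most at 1.8 g/kg, by 0.48 ± 0.23 (limma adjusted p = 1), with 7 of 8 libraries above the control mean. Its difference there was 0.22 without the 3 libraries that stand apart and 0.33 without 1.8 g/kg replicate 4 alone. CXCR4 ran from 0.89 to 3.02 TPM in control (median 1.75) and from 1.5 to 4.99 at 9 g/kg (median 2.80), where it differed by 0.51 ± 0.25. CCR2 had differences of 0.13, 0.16 and 0.30 with an SE of 0.40, which became -0.26, 0.07 and 0.06 without the 3 libraries. The diets overlapped for all of these receptors.

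Beside these receptors stand the T and NK cell markers. The 7 tested genes of that list were higher than control in 7, 7 and 6 cases, with medians of 0.19, 0.33 and 0.23 and none past the test. These medians were -0.05, 0.23 and 0.13 without the 3 libraries that stand apart. Their sums over 9 genes ran from 47.7 to 87.6 TPM in control, from 49.1 to 197 at 1.8 g/kg, from 51.7 to 120 at 9 g/kg and from 49.4 to 115 at 18 g/kg. The 7 macrophage markers were higher in 7, 7 and 7 cases, with medians of 0.26, 0.39 and 0.75, or 0.05, 0.45 and 0.47 without those libraries. For B and plasma cells, 4 markers were tested and were higher in 4, 4 and 4 cases, with medians of 0.25, 0.49 and 0.19. The part of these cells in the receptor values was not tested.

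CCL1, a T cell chemokine whose mammalian receptor is CCR8, differed most at 18 g/kg. It ran from 2.27 to 11.3 TPM in control (median 4.11), from 3.01 to 15.1 at 1.8 g/kg (median 5.52), from 1.89 to 7.11 at 9 g/kg (median 4.62) and from 5.09 to 30.3 at 18 g/kg (median 6.95). The log2 difference was 0.74 ± 0.31 at 18 g/kg (limma adjusted p = 1), with 7 of 8 libraries above the control mean. It was 0.49 without 18 g/kg replicate 2, the library with the highest value. Against 9 g/kg the difference was 0.82 ± 0.31 (limma adjusted p = 0.779), and at 9 g/kg against control it was -0.08. CCR8 averaged 0.408 TPM.

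The interleukin-6 receptor chains, IL6R and the signal-transducing IL6ST, did not pass the test in any comparison. IL6R ran from 24.9 to 45.6 TPM in control (median 29.3), from 22.7 to 43.3 at 1.8 g/kg (median 29.955), from 29.6 to 46.0 at 9 g/kg (median 38.3) and from 16.5 to 52.2 at 18 g/kg (median 26.6). Its log2 differences from control were -0.02, 0.32 and -0.11 with an SE of 0.17, and 18 against 9 g/kg differed by -0.44 (limma adjusted p = 0.779). IL6ST differed by -0.41 in the same comparison (limma adjusted p = 0.845). Of 17 acute phase genes that interleukin-6 drives, chosen as a list, 10 were in the table and tested, and they were higher than control in 3, 1 and 3 cases, with medians of -0.08, -0.12 and -0.07, and 0 passed the test. Their medians were 0.00, 0.03 and 0.01 without the 3 libraries that stand apart. The 8 hepatocyte markers were higher than control in 1, 2 and 1 cases, with medians of -0.09, -0.14 and -0.09 and none past the test. Both lists hold the fibrinogen genes FGG and FGB, so their medians are not separate measures. The part of hepatocyte content in the acute phase values was not tested. FGG had a log2 difference of -0.32 at 9 g/kg (limma adjusted p = 0.962).

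Of the 21 tested interleukin receptors and binding proteins, 11, 12 and 8 were higher than control at the 3 doses and the others lower. IL10RB ran from 8.09 to 32.3 TPM in control (median 11.7), from 8.51 to 20.1 at 1.8 g/kg (median 12.6), from 5.93 to 14.9 at 9 g/kg (median 9.74) and from 6.79 to 15.1 at 18 g/kg (median 11.5). Its log2 differences were -0.15, -0.45 and -0.30 with an SE of 0.22 (limma adjusted p at 9 g/kg = 0.956), and no library at 9 or 18 g/kg was above the control mean. Without control replicate 4, the library with the highest value, the differences were -0.29 at 9 g/kg and -0.14 at 18 g/kg. IL11RA, the receptor for interleukin-11, ran from 8.11 to 21.1 TPM in control (median 10.6) and from 5.34 to 10.0 at 1.8 g/kg (median 8.72). It differed by -0.43 ± 0.21 at 1.8 g/kg, with 0 of 8 libraries above the control mean, and by -0.22 and -0.25 at 9 and 18 g/kg, where it ran from 4.74 to 17.6 TPM (median 8.77) and from 6.04 to 14.2 TPM (median 9.95). Without control replicate 6, the library with the highest IL11RA value, the difference at 1.8 g/kg was -0.30. IL13RA2, a decoy for interleukin-13, had medians of 20.6, 17.5, 17.2 and 18.2 TPM from control to 18 g/kg, and differences of -0.25, -0.19 and -0.22 with an SE of 0.17. IL34 had medians of 7.48, 6.29, 6.24 and 6.75 TPM and a difference of -0.27 ± 0.20 at 18 g/kg.

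IL22RA2, a soluble protein that binds and blocks interleukin-22, had the widest spread of the interleukin genes. It ran from 0.16 to 51.7 TPM in control (median 6.63), from 1.51 to 29.9 at 1.8 g/kg (median 10.2), from 0.50 to 15.98 at 9 g/kg (median 1.37) and from 1.54 to 32.1 at 18 g/kg (median 3.89). The log2 difference at 9 g/kg was -1.14 ± 0.69, the lowest of any family gene at that dose, and it did not pass the test (limma adjusted p = 0.956). Leaving out control replicate 8 gave -0.75, and leaving out control replicate 7 gave -1.54. Within the control diet alone the values covered the whole range seen at the other doses.

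The most abundant genes differed little by diet relative to their spread. IL20RA had medians of 109, 101, 102 and 132 TPM from control to 18 g/kg, IL1RAP 91.7, 78.3, 79.8 and 76.6 TPM, and IL1R1 46.5, 37.3, 38.7 and 29.0 TPM. The log2 differences at 18 g/kg were 0.24 ± 0.23, -0.15 ± 0.14 and -0.35 ± 0.31. IL15 and IL18 had differences between -0.08 and 0.08 at all doses. CXCL12 had medians of 20.8, 17.5, 16.7 and 20.5 TPM, and XCL1 had 12.9, 15.6, 12.2 and 16.8 TPM, with a difference of 0.54 ± 0.28 at 1.8 g/kg. That difference was 0.33 without 1.8 g/kg replicate 4 and 0.30 without the 3 libraries that stand apart. All of these groups overlapped. The 6 stellate cell and fibroblast markers, which stand beside CXCL12 in the relations across libraries below, were higher than control in 0, 0 and 2 cases, with medians of -0.37, -0.31 and -0.06. Their sums ran from 107 to 418 TPM in control and from 83.2 to 403 TPM over the 3 doses.

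Genes on the signalling side of these receptors were read from lists. Of 21 tested JAK, STAT and SOCS genes, 12, 13 and 10 were higher than control at the 3 doses, with medians of 0.01, 0.01 and -0.04. SOCS2, a feedback inhibitor of cytokine and growth hormone receptors, had the smallest p at 9 g/kg with a log2 difference of 1.22 ± 0.37 (limma adjusted p = 0.778), and SOCS1 had differences of -0.63, -0.54 and -0.59 (limma adjusted p = 1, 0.956 and 1). Of 28 Toll and interleukin-1 receptor and NF-kappaB genes 22, 18 and 15 were higher, and of 20 chemokine receptor signalling genes 16, 17 and 13. Their medians lay between 0.01 and 0.11, and 0 genes of these lists passed the test. At 1.8 g/kg the median of the chemokine receptor signalling genes was 0.09, and -0.08 without the 3 libraries that stand apart.

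**Figure D4:**
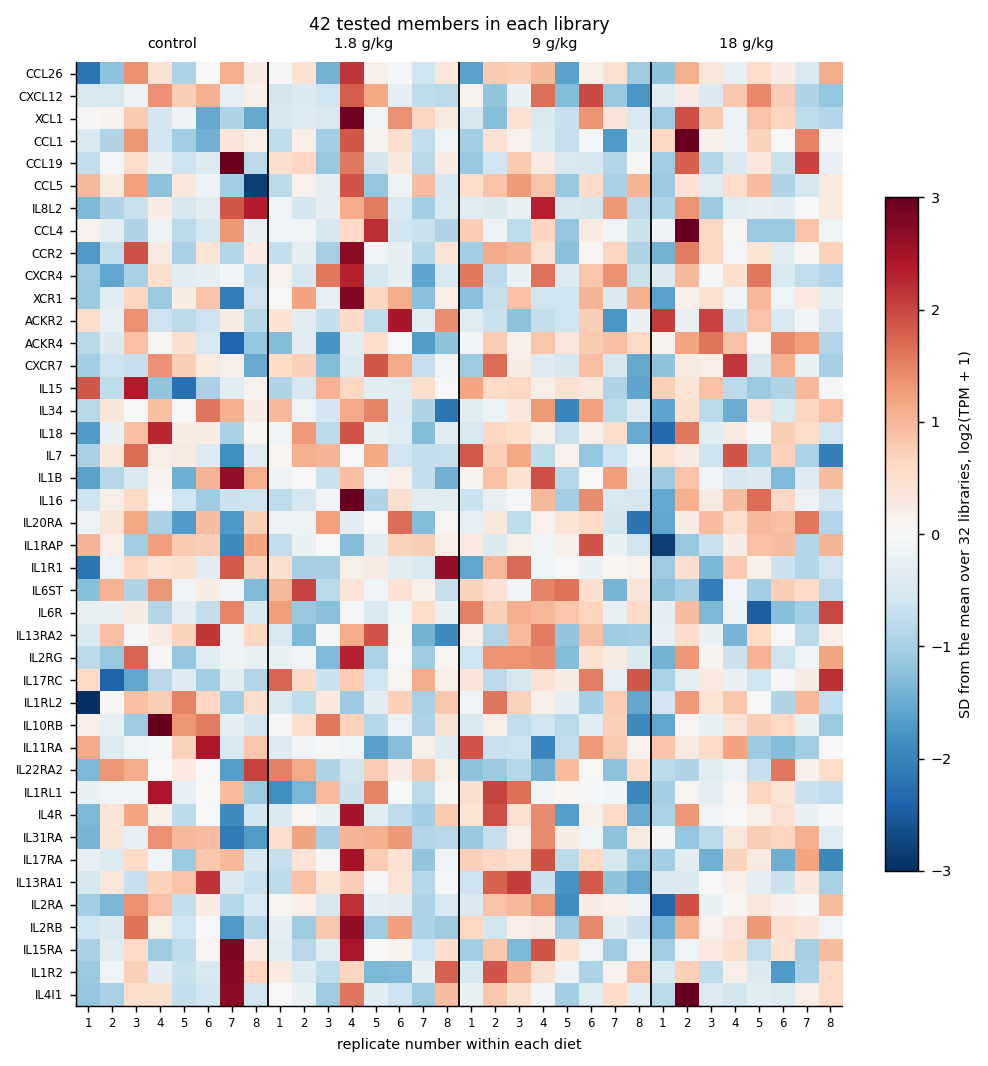
Each of 42 tested genes in each of the 32 libraries, as SD from the gene's mean over all libraries on log2(TPM + 1), with red for high and blue for low; columns are replicates within a diet. The column of 1.8 g/kg replicate 4 is red in many rows, and no block of 8 columns stands out as a whole.

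Some pairs of these genes varied together across libraries. Over the 32 libraries, 63 of 903 pairs of genes had a Pearson r and a Spearman rho that both passed 2-sided permutation tests with Benjamini-Hochberg adjustment over the pairs, and 60 of these were positive. IL2RG, the common gamma chain of receptors for interleukins 2, 4, 7, 9, 15 and 21, had an r of 0.885 with CCR2 and of 0.877 with IL2RA, the high affinity chain for interleukin-2 (each permutation p = 1e-05, the smallest that 100000 resamples can give; adjusted p = 0.000451). The corresponding rho were 0.888 and 0.853, and r after subtracting the dose means was 0.898 and 0.879. The share of such pairs among all tested genes was not computed. Neither these pairs nor the relations with marker lists below were computed again after rescaling the libraries by median ratios. The factors of that rescaling ran from 0.764 in 9 g/kg replicate 8 to 1.31 in 1.8 g/kg replicate 4. The part of such library-wide shifts in the positive relations was not tested. CCR2 and CCL26 had an r of 0.859 and a rho of 0.849. IL16, a T cell attractant, and IL2RB had an r of 0.826, and IL34 and IL13RA2 had 0.756.

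CCL26 varied most and went with the macrophage markers. Control libraries ran from 2.99 to 236 TPM (median 56.1), those at 1.8 g/kg from 8.63 to 577 (median 53.1), those at 9 g/kg from 6.68 to 150 (median 70.5) and those at 18 g/kg from 11.1 to 176 (median 67.9). High and low libraries occurred on every diet, and the log2 differences from control were 0.47, 0.01 and 0.55 with an SE of 0.82. The summed macrophage markers ran from 54.3 to 1431 TPM in control, from 98.2 to 1822 at 1.8 g/kg, from 75.7 to 1123 at 9 g/kg and from 89.9 to 1182 at 18 g/kg. Control replicate 1 was lowest in both measures and 1.8 g/kg replicate 4 highest in both.

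Pearson's r between CCL26 and the mean of the macrophage markers was 0.946 and Spearman's rho 0.930 (each permutation p = 1e-05; adjusted p = 0.000215 and 0.000301). The r was 0.928 without the 2 farthest libraries and 0.955 after subtracting the dose means. The same list gave an r of 0.924 for CCR2, 0.886 for IL2RG and 0.839 for IL2RA, each with a permutation p of 1e-05 and a rho of at least 0.838. IL18 (r = 0.670), IL4I1 (0.650) and IL1B (0.611), genes of activated macrophages in mammals, varied with it less closely. All of the points share libraries, so these relations describe variation between samples.

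The relations with cell markers were not confined to 1 list per gene. Without the 3 libraries that stand apart, IL2RG, IL2RA and CCR2 had an r of 0.743, 0.669 and 0.621 with the T and NK cell markers. Over the same libraries IL4R had an r of 0.722 with the macrophage markers. The adjusted permutation p of these 4 was at most 0.00702 for r and at most 0.00919 for rho. The values that follow are over all 32 libraries unless stated. IL16 had an r of 0.884 with the T and NK cell markers and IL2RB, the signalling chain for interleukins 2 and 15, of 0.863 (each permutation p = 1e-05; rho 0.849 and 0.816). IL4R had an r of 0.780 with that list, CCL5 of 0.630 and XCL1 of 0.661. Without the 3 libraries that stand apart, XCL1 had an r of 0.424 (adjusted permutation p = 0.108), and CCL5 had an r of 0.537 and a rho of 0.488 (adjusted permutation p = 0.0276 and 0.0628). CXCL12 had an r of 0.723 with the stellate cell and fibroblast markers (permutation p = 1e-05; rho 0.677), and its scavenger CXCR7 had 0.548. IL34 and IL13RA2 had an r of 0.552 and 0.535 with the same list. CXCR7 was not confined to that list. Without the 3 libraries that stand apart, its r was 0.560 with the stellate list and 0.701 with the endothelial markers (adjusted permutation p = 0.0213 and 0.000547). Over all 32 libraries with a pseudocount of 0.1, the 2 values were 0.544 and 0.371. CCL19 had an r of 0.719 with the heterophil list, of which only 2 of 6 genes are in the table, and 0.563 without the 2 farthest libraries. It was 0.438 without the 3 libraries that stand apart (adjusted permutation p = 0.108).

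Hepatocyte markers gave relations of both signs. IL1R1 had an r of 0.655 with the 8 hepatocyte genes (permutation p = 8e-05; rho 0.565), and IL15 had an r of -0.705 (permutation p = 4e-05; rho -0.742). The r of IL15 was -0.636 without the 2 farthest libraries and -0.704 after subtracting the dose means. In all, 41 of 301 relations between a gene and a list passed both tests, 39 of them positive, and 10 each lay with the macrophage and the T and NK lists. How often other tested genes have such relations was not computed, so the counts are not a trait of the family. Without the 3 libraries that stand apart 31 relations passed, 26 of them among the 41.

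**Figure D5:**
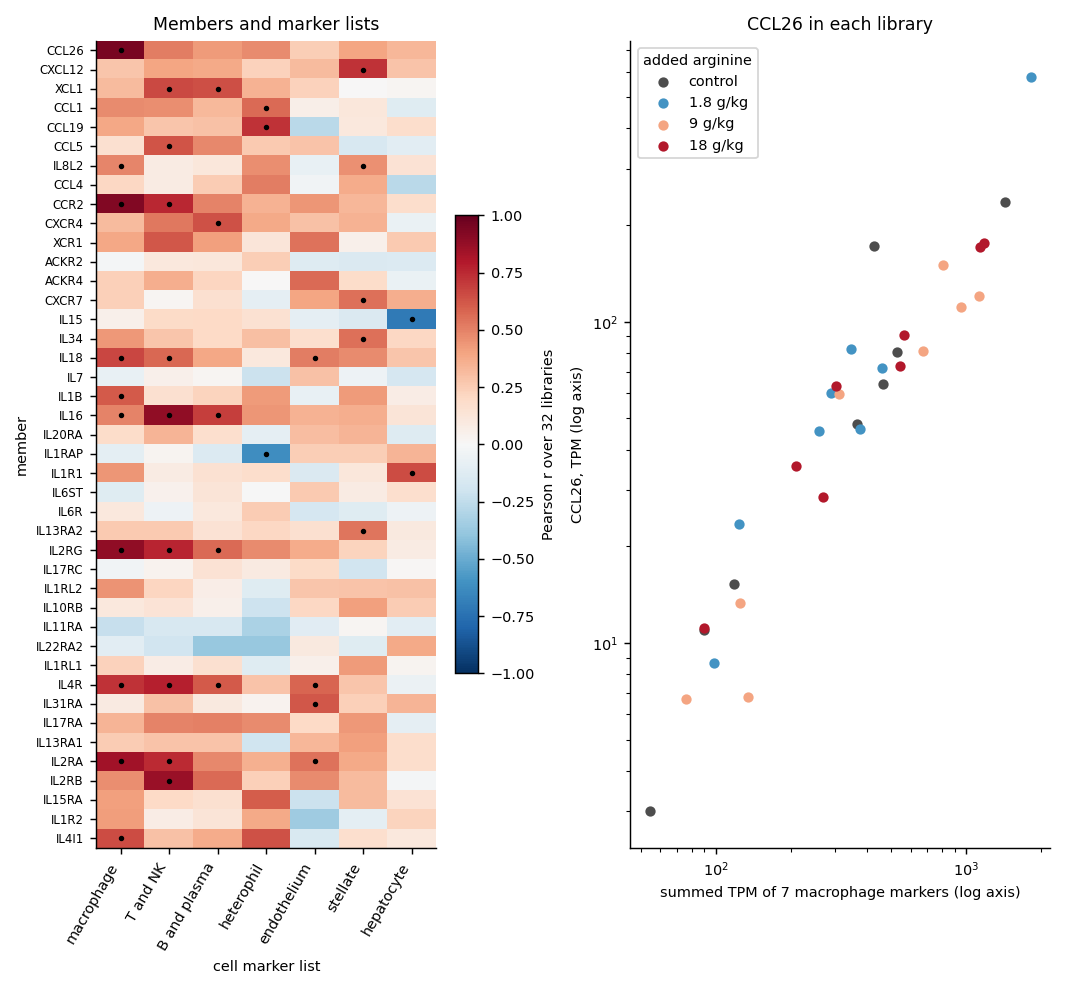
Left, Pearson r over 32 libraries between each of 42 tested genes and the mean log2(TPM + 1) of each marker list, with a dot where r and rho both passed adjustment. Right, CCL26 against the summed TPM of 7 macrophage markers, both on log axes, 1 point per library; points of all 4 diets lie along the same band, from control replicate 1 at 2.99 TPM to 1.8 g/kg replicate 4 at 577 TPM.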

How the data were processed

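Liver messenger RNA of 32 libraries was measured by RNA sequencing. The authors deposited TPM values for 25619 genes in 1 table, 1 column per library. The submitters' processing notes name fastp, HISAT2, StringTie and RSEM, while versions and the genome build are not given in the sources used here. TPM holds no counts, so depth is unknown, no count model was used, and a value is a share that moves when other genes take more of the library. Strand use in counting is not given. Any reads that genes of similar name share (IL8L1 and IL8L2, CCL4 and CCLL4, the CXCL13 genes) may have been split, and their sequences were not compared.

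Samples were grouped by the labelled diet. Values were taken as log2(TPM + 1), genes that averaged 1 TPM or more across the libraries were kept, and limma 3.58.1 (R 4.3.3) was fitted to all 11339 of them with a mean per diet and eBayes with trend, 2-sided, with Benjamini-Hochberg adjustment and a threshold of 0.05. A second fit had dose in g/kg as a slope. Correlations across libraries used 100000 permutations (numpy 2.4.6). Some of these steps, a limma comparison with control and a Pearson permutation among them, were tested on simulated data, and others were not. Genes named in the text are ACKR4, the 2 of smallest p in each direction at each dose, the 4 of smallest p over all diets, the 3 of highest level in each role, up to 6 low genes with the highest single value, and, from the marker and signalling lists, the 2 of smallest p at a dose; others are named in relations across libraries. The genes, lists and rules were chosen with earlier results of these data known. Replicate numbers were checked for pairing, with values given below, and the main fit treated the libraries as unpaired. The RefSeq table (GRCg7b) matched all 99 genes by symbol and was used for names, gene types and chromosomes. No sequence was used here. Alternatives were the pseudocount, the filter, rescaling by median ratios, eBayes without trend, library weights, the W-linked transcript HINTW as a covariate, a replicate block, pairs of diets alone and leaving out libraries. The values of 1 tested gene are not reported here, though it stays in the counts over the family and in the fits.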

Additional observations from a re-analysis of the deposited data

Results flagged for a closer look

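In 15 of 168 groups of 8 libraries (42 genes by 4 diets), the highest library lay apart from the rest by a gap whose share of the group's range on log2(TPM + 1) exceeded Dixon's 95% critical value. The lowest library of each group was checked in the same way, and all 15 flags were high values. They make up 8.93% of the groups. For normally distributed values, chance flags about 1 in 20 groups with both ends counted together, and fewer at the high end alone. The genes are not independent, since 5 of the 15 come from 1.8 g/kg replicate 4 and 4 from control replicate 7.

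In 1.8 g/kg replicate 4, CCR2 was 18.46 TPM against 4.36 in the next library of its diet, IL15RA 3.67 against 2.34, IL16 3.88 against 1.31, IL2RA 8.47 against 3.16 and IL2RG 42.28 against 13.78. This library also had the highest sums of T and NK markers (197 TPM), macrophage markers (1822 TPM) and endothelial markers (135 TPM) of all 32. It had the most genes at 1 TPM or more as well, 11678. Its sum of stellate cell and fibroblast markers, 221 TPM, was not the highest. The part of any of these cell types in the values was not tested.

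In control replicate 7, CCL19 was 28.4 TPM against 6.01 in the next control library, IL15RA 3.97 against 2.38, the interleukin-1 decoy IL1R2 7.68 against 2.79, and IL4I1 8.7 against 1.79. That library had the highest sum of the 2 heterophil markers, 413 TPM, and the lowest of the 6 endothelial markers, 24.9 TPM. In 18 g/kg replicate 2, CCL4 was 14.37 TPM against 2.31 and IL4I1 10.48 against 1.88.

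Single genes stood apart in 4 other libraries. IL2RG was 32.07 TPM in control replicate 3 against 13.63, IL1R1 was 123.53 TPM in 1.8 g/kg replicate 8 against 47.34, IL1RAP was 112.43 TPM in 9 g/kg replicate 6 against 84.12, and IL17RC was 20.91 TPM in 18 g/kg replicate 8 against 14.62.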

How the results depend on the processing

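The count of 0 family genes past the threshold was the same in every comparison under all alternatives run, the 32 fits without 1 library included, and with 3 libraries left out. The lowest adjusted p of a family gene came with library quality weights: 0.819, 0.204 and 0.549 at 1.8, 9 and 18 g/kg, and 0.171 over all diets. Under these weights 8 genes of the whole table were called at 9 g/kg, none of them in the family. Of the list genes 2 were then called at 9 g/kg, POU2AF1 (log2 difference 0.74, adjusted p = 0.0243) and SOCS2 (1.58, adjusted p = 0.0282), against 0 in the fit with equal weights; the cause was not tested. Without the filter on low values 96 genes of the family entered, and 0 passed. Of the 53 below the limit, 1, 2 and 4 had an unadjusted p below 0.05 at the 3 doses. The share among all 21132 genes of that fit was not computed, so these counts have no background to be read against. Only ACKR4 and genes chosen by smallest p were followed through every alternative. Among these, directions turned for CCL1 at 9 g/kg, which was -0.08 and became 0.19 with weights (-0.20 to 0.078 without 1 library). They also turned for IL6R at 1.8 g/kg, which was -0.02. It became 0.077 with weights and 0.059 with 3 libraries left out (-0.089 to 0.067 without 1 library). Other family genes turned at 1.8 g/kg with 3 libraries left out. Among them, CCR2 went from 0.13 to -0.26, IL2RA from 0.14 to -0.10 and IL2RG from 0.06 to -0.17. Same-numbered libraries correlated above 0.1 in 18 of 48 pairs. For each pair of diets their median r lay between -0.051 and 0.076, beside -0.027 to 0.023 for different numbers. The best match had the same number for 1 to 4 of 8 libraries. These values do not settle whether the numbers mark a pairing. The fit with the replicate block called 0 family genes. Of the 41 relations with marker lists, 39 were also found with a pseudocount of 0.1, under which 39 passed in all. TPM carry no depth, so differences of low genes, near 1 TPM, are understated by the pseudocount.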

Other observations

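Some family genes lie on the chicken Z chromosome, which males carry as a pair and females singly beside the W chromosome: IL11RA, CCL19, IL31RA and IL6ST, by the reference table. HINTW, a W-linked transcript, was listed at 0 in 20 libraries and ran from 20.1 to 37.7 TPM in the other 12, which were 2 of control, 3 at 1.8 g/kg, 4 at 9 g/kg and 3 at 18 g/kg. IL31RA, a receptor chain for interleukin-31, had a median of 2.90 TPM in the 12 libraries with HINTW (2.04 to 4.99) and 5.73 TPM in the 20 without it (1.64 to 7.56). Its slope on log2 HINTW, with the diet means in the same limma fit, was -0.14 ± 0.027 (adjusted p = 0.000623). IL31RA was the only 1 of the 43 tested genes whose slope passed, 2.33% of the family, where 2.29% of all tested genes passed. This slope was looked at after seeing the data.

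IL6ST, the gp130 chain, had a median of 28.4 TPM with HINTW and 38.9 TPM without it, with a slope of -0.08 (limma adjusted p = 0.0705). IL11RA had 11.9 TPM with HINTW and 8.22 TPM without it, with a slope of 0.10 (limma adjusted p = 0.0671), so these Z-linked genes did not share a sign. CCL19 had a median of 2.39 TPM with HINTW and 4.64 TPM without it.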
